A study of Homo sapiens with 6 samples.

Results

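The resting transcriptome of AGS cells, an established line from a human gastric adenocarcinoma, was described from the 3 libraries of cells transfected with a control siRNA (siControl). All genes with at least 1 FPKM (fragments scaled to the length of the gene model and to the library's total, the deposited unit) in each of the 3 libraries were taken as expressed. They were 10727 of the 18597 genes in the files. The series holds 6 libraries of AGS cells, and the other 3, from cells transfected with siDUB1, were not used here. RNA was extracted with Trizol and libraries were made by the BGISEQ-500 protocol, per the labels. Every library came from transfected cells, so the resting state cannot be told apart from a response to transfection with a control siRNA. The labels number the control libraries 1 to 3 and do not say whether they came from separate cultures, so the SD printed beside a mean describes how far these 3 libraries differed and may reflect technical variation alone.

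The gastric epithelium renews from stem cells in its glands and is made of surface mucous cells, gland mucous cells, acid-secreting parietal cells, pepsinogen-secreting chief cells and hormone-secreting endocrine cells, each with its own marker genes. Intestinal cells share many of the same endodermal transcription factors but use other secreted and brush border proteins, and gastric tumours can carry features of both. Most proteins of general metabolism exist as families of related genes (paralogues), of which a given cell type commonly uses a subset.

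The 3 libraries were close to each other. The FPKM values summed to 545694, 573574 and 564635 in replicates 1, 2 and 3, and 16180, 16130 and 16212 genes were above 0. Across all 18597 genes, Pearson's r of log2(FPKM + 1) was between 0.998 and 0.999 for the 3 pairs of libraries, as a description over genes, which are not independent replicates. The number of reads behind a value is not known, since the files hold FPKM rounded to 2 decimals and no counts.

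Of all genes, 57.7% were expressed by the rule, 6.57% (1221 genes) were listed at 0 in all 3 libraries, and the other 6649 lay between. The 57.7% is the background share for each count of expressed list or family members below. Genes annotated as protein coding made up 99.4% of the expressed genes. As they were also 18186 of the 18597 genes in the files, this share mostly reflects what the files hold. Expressed genes held 99.8% of the summed FPKM of each library. Their median level was 12.4 FPKM, against 3.003 FPKM over all genes. The higher median and the large share of the sum follow from the rule itself, which leaves out genes of low level. Levels of 1 to 10 FPKM were found for 4686 expressed genes, 10 to 100 FPKM for 5145, 100 to 1000 FPKM for 808, and at least 1000 FPKM for 88. Those 88 genes held 32.3% of the summed FPKM. The 293 most abundant genes held 50% and 3829 genes held 90%.

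**Figure D1:**
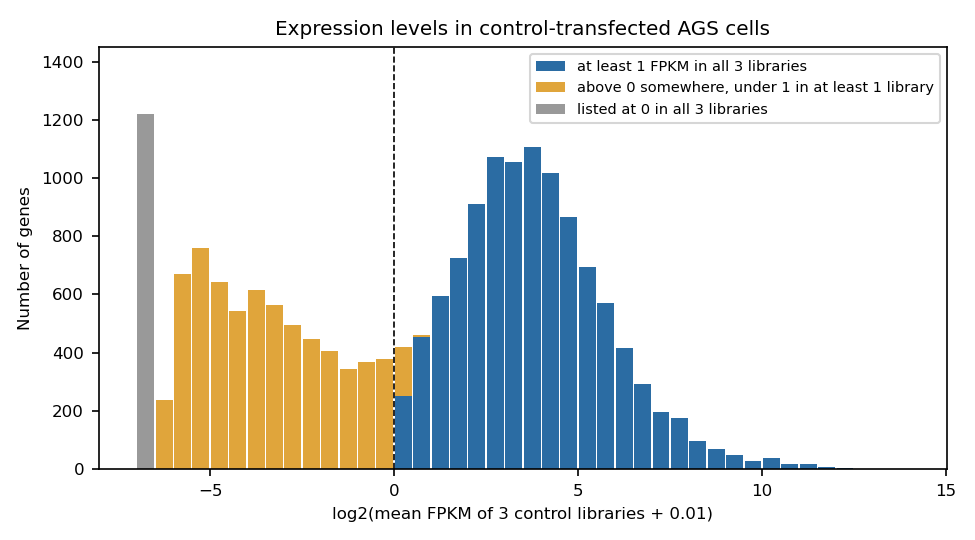
Number of genes (y axis) by log2 of the mean FPKM of the 3 control libraries plus 0.01 (x axis), with the dashed line at 1 FPKM. The expressed genes form the right-hand group, 6649 genes lie below or around the line, and the bar at the far left holds the 1221 genes listed at 0.

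The threshold cut through a continuous range. In 97 expressed genes the lowest library lay from 1 up to 1.1 FPKM, and in 107 genes just outside it lay from 0.9 up to 1 FPKM. Just inside were IL6R (1.00, 1.04 and 1.06 FPKM), SPTB (1.12, 1.00 and 1.00 FPKM) and TMEM67 (1.00, 1.06 and 1.15 FPKM). Just outside were TRIM45 (0.99, 1.26 and 1.09 FPKM), VAMP4 (1.44, 0.99 and 1.34 FPKM) and SLC60A2 (1.45, 1.40 and 0.99 FPKM). Another 337 genes reached 1 FPKM in only 1 or 2 libraries.

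The most abundant messenger RNA per length was that of FTL (NCBI Gene 2512), the light chain of the iron store ferritin, at 11842, 13106 and 12773 FPKM (mean 12574 ± 655, SD, n = 3). The heavy chain FTH1, which carries the ferroxidase site, was at 1502, 1621 and 1551 FPKM, far below FTL in every library. GAPDH, the glycolytic dehydrogenase, followed FTL at 5749, 6210 and 5962 FPKM. The rest of the 20 most abundant genes fell into a few classes. Ribosomal proteins included RPS2 (5621 ± 298 FPKM), RPS27, RPL18, RPL13A and RPLP0. Calcium-binding proteins of the S100 family were S100A11 (5066 ± 293 FPKM), S100A6 and S100A10. The cytoskeleton gave ACTB (4884 ± 227 FPKM), ACTG1, the actin-binding TMSB10 and PFN1, the tubulin TUBA1B and the simple epithelial keratin KRT8. The detoxifying transferase GSTP1 (2389 ± 137 FPKM) and the prolyl isomerase PPIA (2313 ± 162 FPKM) closed the list. MTRNR2L2, at 3729, 3342 and 3324 FPKM, is a nuclear gene that resembles mitochondrial ribosomal RNA, and with no row for the mitochondrial chromosome in the files its reads and those of mitochondrial origin cannot be told apart. Together the 20 genes held 14.8% ± 0.258 (SD, n = 3) of the summed FPKM, and 18 of them were among the top 20 in all 3 libraries. Of the top 100, 97 were in the top 100 of every library. The annotated span of the 100 most abundant genes, introns included, had a median of 4394 bases, against 28785 bases for all expressed genes and 12957 bases for genes listed at 0. The span is a property of the gene and not of the transcript whose length enters FPKM.

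Genes for cytosolic ribosomal proteins, the protein part of the ribosome, made up the largest share of summed FPKM among the symbol families examined. Of 85 in the files, 82 were expressed, with a median of 973 FPKM over the 85. They held 17.3% ± 0.809 (SD, n = 3) of the summed FPKM, with 16.4% in replicate 1 and 17.9% in replicate 2. The 3 that were not expressed are paralogues of tissue-restricted use: RPL10L was listed at 0, RPL39L was at 0, 0.08 and 0 FPKM, and RPL3L was at 0.42, 0.30 and 0.44 FPKM. Ribosomal protein messages in mammals are known for starting with a C inside a run of pyrimidines, the feature through which their translation responds to growth signals. RefSeq windows on build GRCh38.p14 were matched for 67 of the 82 expressed genes. A start of C followed by at least 4 pyrimidines (C or T) stood in 43 of the 67 (64.2%), against 5.70% of the 8857 expressed genes with a window and 4.04% of all 27305 windows in the table. The 27305 windows include genes that are not in the files. The starts of 5 of the most abundant genes with an entry are shown as examples of this feature, 10 bases before the annotated start and 15 from it, with the run of pyrimidines from the start in capitals.
RPS27: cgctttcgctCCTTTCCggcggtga
RPL18: agcccgttctCTCTTTCCggacctg
RPL13A: aaacctcctcCTTTTCCaagcggct
RPLP0: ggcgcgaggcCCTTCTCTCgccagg
RPLP2: tcggcgccttCCTTTTCCTCCCTgt
They lie at chr1:153990752-153990776 (plus strand) for RPS27, chr19:48619164-48619188 (minus strand) for RPL18, chr19:49487598-49487622 (plus strand) for RPL13A, chr12:120201097-120201121 (minus strand) for RPLP0 and chr11:809957-809981 (plus strand) for RPLP2. The runs ranged from 7 bases in RPS27 and RPL13A to 13 bases in RPLP2. RPS27 was at 3519, 4379 and 4264 FPKM, RPL18 at 2893, 3352 and 3181 FPKM, and RPLP2 at 2122, 2428 and 2248 FPKM. In all of these replicate 1 was the lowest library.

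The same windows were searched for other promoter features. The hexamer CGGAAG, a core letter string of ETS family sites, was found on either strand in 62.7% of the 67 ribosomal protein windows, against 35.7% of the expressed genes and 19.9% of all windows in the table. CCAAT stood in 32.8% of the ribosomal protein windows, 36.9% of the expressed genes and 35.7% of all windows. TATAAA, the usual TATA box string, stood in 8.96%, 5.14% and 12.0%. These are matches of letters in 300 bases and not sites shown to be bound.

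Most other groups of the general machinery were expressed nearly complete, except the V-type ATPase, with 14 of 21 genes (66.7%). All 45 complex I genes of the NDUF symbols, which encode subunits and assembly factors of the entry enzyme of the respiratory chain, were expressed, between 7.43 and 320 FPKM, as were all 9 COP9 signalosome genes. So were 76 of 77 mitochondrial ribosomal protein genes (median 40.8 FPKM), 45 of 46 proteasome genes (median 73.8 FPKM), 32 of 33 RNA polymerase subunit genes and 51 of 56 translation initiation factor genes. PSMB4, a proteasome core subunit, was at 410.0, 438 and 452 FPKM, and EIF5A, the hypusine-carrying translation factor, at 825, 838 and 812 FPKM. Across the machinery groups examined, RPL10L and EIF4E1B were the genes listed at 0.

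The epithelial identity of the line was read from 27 genes of junctions, simple keratins and epithelial regulators, of which 26 were expressed, against 57.7% of all genes. The median of the list was 56.9 FPKM, and its summed level ran from 9456 to 9913 FPKM in the 3 libraries. KRT8 and KRT18, the keratin pair of simple epithelia, were at 3687, 3785 and 3601 FPKM and at 2041, 2251 and 2072 FPKM. KRT19, the small simple keratin, was at 1002, 1063 and 977 FPKM. The Kunitz-type protease inhibitor SPINT2 (511 ± 8.12 FPKM), the junctional plaque protein JUP (336 ± 12.7 FPKM) and the tight junction protein CLDN4 (324 ± 5.85 FPKM) followed. EPCAM, an epithelial adhesion molecule, was at 255.4, 258.4 and 266 FPKM, and the splicing regulators of epithelial cells ESRP1 and ESRP2 were at 40.8 ± 1.56 and 42.8 ± 3.65 FPKM. The member that was not expressed was CLDN3, at 0.25, 0.17 and 0.29 FPKM. CDH1, which encodes E-cadherin, the main adhesion molecule of epithelia, passed the rule at a low level of 3.08, 3.22 and 3.14 FPKM. The liver-intestine cadherin CDH17 was higher per length, at 20.79, 20.93 and 20.02 FPKM, with no overlap between the genes in these libraries.

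Of the 52 keratin genes in the files, 15 were expressed (28.8%, against 57.7% of all genes) and 8 were listed at 0. Beside KRT8, KRT18 and KRT19, the highest were KRT80 (240.5 ± 6.26 FPKM), a keratin of many epithelia, KRT17 at 206, 219 and 205 FPKM, a keratin of stressed and stratified epithelia, and KRT81 (73.4 ± 4.66 FPKM), a hair keratin. KRT20, which marks intestinal and foveolar differentiation, was at 0.06, 0.03 and 0.06 FPKM. Squamous markers were mostly low: 3 of 12 were expressed, led by KRT10 (17.6 ± 0.541 FPKM), KRT13 (11.6 ± 0.539 FPKM) and KRT6A (4.58 ± 0.104 FPKM). KRT1 and KRT4 were listed at 0 and TP63, the master regulator of stratified epithelia, was at 0.16, 0.14 and 0.16 FPKM.

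The labelled tissue, stomach, was checked against markers of its cell types, and the mature types were represented only in part. Of 14 surface and pit mucous cell genes, 5 were expressed (35.7%, against 57.7% of all genes). CTSE, an aspartic protease of surface mucous cells, was at 643, 639 and 644 FPKM, a spread of 2.87 FPKM (SD, n = 3). The transcription factor FOXQ1 was at 127, 113 and 114 FPKM and the membrane mucin MUC1 at 53.3, 51.0 and 47.0 FPKM. TFF1, the trefoil peptide of surface cells, was at 13.3, 15.9 and 13.9 FPKM, and PSCA, a surface antigen of pit cells, at 2.05, 2.20 and 2.94 FPKM. Other products of pit cells were not among the expressed genes: the mucin MUC5AC was at 0.03, 0.02 and 0.02 FPKM, GKN1 was listed at 0, and the gastric claudin CLDN18 was at 0.41, 0.45 and 0.40 FPKM. In bulk RNA such as this, fewer cells of a type and less RNA per cell cannot be told apart.

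The other gastric cell types were nearly absent from the expressed set. None of 4 gland mucous cell genes was expressed, with MUC6 at 0.02, 0.01 and 0.01 FPKM and TFF2 at 0.09, 0 and 0.09 FPKM. Of 6 chief cell genes, BHLHA15, a secretory transcription factor, was expressed at 2.60, 1.83 and 2.27 FPKM, while the pepsinogen PGC was at 0.49, 0.83 and 0.41 FPKM and the gastric lipase LIPF at 0.04, 0 and 0 FPKM. Of 6 parietal cell genes, the potassium channel KCNQ1 was expressed at 3.28, 3.32 and 3.31 FPKM, while the proton pump subunit ATP4A was at 0.03, 0 and 0.01 FPKM and the intrinsic factor gene CBLIF was listed at 0. Of 11 gut endocrine genes, CCK, which encodes cholecystokinin, was expressed at 7.33, 7.72 and 9.05 FPKM. CHGA, the general endocrine granule marker, was at 0.17, 0.30 and 0.21 FPKM.

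Of 14 markers of gut stem and progenitor cells 10 were expressed (71.4%, against 57.7% of all genes), with a list median of 14.6 FPKM. AXIN2, a negative regulator and target of Wnt signalling, was at 88.7, 79.6 and 83.8 FPKM. LGR5, the R-spondin receptor that marks stem cells, was at 54.7, 47.7 and 53.5 FPKM. RNF43, the ubiquitin ligase that removes Wnt receptors, was at 47.8, 42.4 and 42.7 FPKM, and SOX9, a progenitor transcription factor, at 42.0, 35.4 and 37.9 FPKM. Replicate 2 was the lowest library for each of these 4 genes. CD44 (21.2 ± 0.132 FPKM) and LRIG1 (16.6 ± 0.864 FPKM), a brake on growth factor receptors, were expressed too. OLFM4, which marks intestinal stem cells, was at 0.04, 0.04 and 0 FPKM, ASCL2 was at 0.20, 0.17 and 0.11 FPKM, and SMOC2 was listed at 0. Of the ligands of LGR5, RSPO1 was listed at 0 and RSPO4 was at 0, 0.02 and 0 FPKM, and others were not examined.

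Of 23 transcription factors of the foregut and gut, 14 were expressed (60.9%), close to the share of all genes, and the list median was 5.01 FPKM. ELF3, an epithelial ETS factor, led at 205, 198 and 193 FPKM. GATA4 was at 69.4, 70.1 and 65.6 FPKM and GATA6 at 52.95, 44.6 and 46.1 FPKM. Both are endodermal factors of stomach and intestine. KLF5 (58.4 ± 2.54 FPKM), FOXA3 (49.9 ± 1.20 FPKM) and the intestinal master regulator CDX2 (33.1, 29.8 and 28.9 FPKM) followed. SOX2, a factor of the stomach rather than the intestine, was expressed with CDX2 in the same libraries, at 4.09, 3.33 and 4.20 FPKM, and PDX1, of the gastric antrum and duodenum, at 5.24, 4.89 and 4.89 FPKM. BARX1, of the stomach mesenchyme, was at 0, 0 and 0.07 FPKM.

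Intestinal differentiation genes were uneven in the same way. Of 20 enterocyte genes 5 were expressed: VIL1 (84.9 ± 2.24 FPKM), the brush border actin bundler, CDH17, the adhesion molecule CEACAM5 (15.5 ± 0.379 FPKM), the lectin LGALS4 (7.94 ± 0.523 FPKM) and GUCA2A (2.59 ± 0.235 FPKM), which encodes guanylin. The guanylin receptor GUCY2C was at 0.04, 0.01 and 0.01 FPKM, and the disaccharidases LCT and SI were at or under 0.02 FPKM in every library. Of 13 goblet and Paneth cell genes 7 were expressed (53.8%, close to the 57.7% of all genes). PLA2G2A, a secreted phospholipase, was at 663, 737 and 665 FPKM, and LYZ, lysozyme, at 187, 187 and 186 FPKM. REG4 (28.0 ± 0.594 FPKM), MUC13 (20.1 ± 0.855 FPKM), AGR2 (5.30 ± 0.678 FPKM), SPINK4 and SPDEF were the others. The goblet cell mucin MUC2 was at 0.02, 0.01 and 0.02 FPKM, TFF3 at 0, 0.10 and 0.05 FPKM, and ATOH1, the factor that specifies secretory cells, was listed at 0. Of 18 mucin genes in all, the 3 expressed were MUC1, MUC13 and MUC20 (6.54 ± 0.568 FPKM), all membrane mucins.

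**Figure D2:**
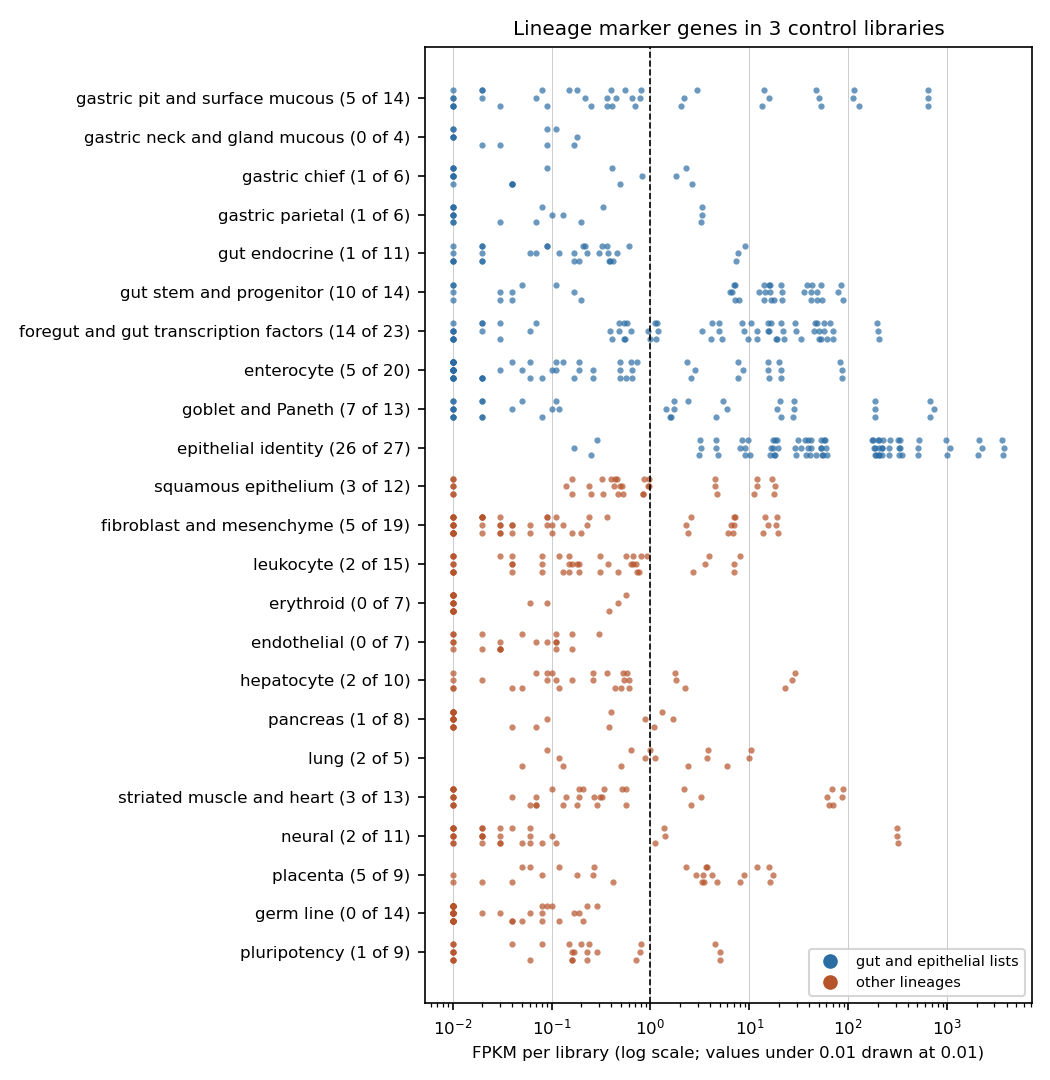
FPKM of each marker gene in each of the 3 control libraries (x axis, log scale, values under 0.01 drawn at 0.01) for gut and epithelial lists and for lists of other lineages, with the number expressed of the number in the files in parentheses and the dashed line at 1 FPKM. The epithelial identity list (26 of 27) lies almost wholly above the line, while gland mucous (0 of 4), endothelial (0 of 7), erythroid (0 of 7) and germ line genes (0 of 14) lie below it.

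Lists of other lineages were mostly under the threshold, with a few exceptions far above it. Of 19 fibroblast and mesenchymal genes 5 were expressed (26.3%, against 57.7% of all genes). The summed level of the list was 49.2, 50.6 and 51.2 FPKM. COL1A1, a chain of type I collagen, was at 19.6, 18.7 and 18.9 FPKM, SNAI1, a repressor of epithelial genes, at 13.7, 15.4 and 14.5 FPKM, and VIM, the mesenchymal filament vimentin, at 6.01, 6.49 and 7.21 FPKM. ZEB1 was at 0.20, 0.23 and 0.36 FPKM, ZEB2 at or under 0.01 FPKM, and TWIST1 was listed at 0. COL1A2, whose product pairs with that of COL1A1 in type I collagen, was at 0.03 FPKM in every library. Type VI collagen showed the same split, with COL6A1 at 59.0, 55.1 and 52.5 FPKM, COL6A2 at 0.47, 0.86 and 0.87 FPKM, and COL6A3 at 0.02 FPKM in each library. The epithelial laminin chains LAMA3 (40.8 ± 0.811 FPKM) and LAMB3 (67.9 ± 2.83 FPKM) were expressed, as were the chains of the integrin that binds epithelial laminin, ITGA6 (51.2 ± 4.35 FPKM) and ITGB4 (55.1 ± 2.85 FPKM).

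Genes of cells that a pure epithelial line should not hold were mostly at or near 0. Of 15 leukocyte genes 2 were expressed (13.3%, against 57.7% of all genes). They were CD68 (7.02, 6.99 and 8.13 FPKM), a lysosomal protein, and CD74 (2.70, 3.54 and 3.89 FPKM), the invariant chain. MS4A1 was listed at 0 and PTPRC, the general leukocyte antigen, was at 0.13, 0.15 and 0.31 FPKM. None of 7 erythroid genes, with HBB and GATA1 among those listed at 0, and none of 7 endothelial genes was expressed. Of 10 hepatocyte genes, APOA2 was at 22.7, 27.3 and 28.7 FPKM and FGA, the fibrinogen alpha chain, at 2.22, 1.81 and 1.77 FPKM. ALB was listed at 0, and APOA1, the partner of APOA2 in high-density lipoprotein, was at 0.49 FPKM in every library.

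Single genes of distant tissues were expressed too. Of 13 striated muscle and heart genes 3 were expressed: MYL7, the atrial myosin light chain, at 70.3, 85.7 and 87.9 FPKM, NPPB, the natriuretic peptide B precursor, at 63.3, 61.5 and 68.2 FPKM, and DES, desmin, at 2.59, 3.23 and 2.20 FPKM. MYOD1 was listed at 0, and MYH6 and MYH7, the cardiac myosin heavy chains, were at or under 0.01 FPKM. In the neural list of 11, TUBB3, a tubulin of neurons, was at 316, 309 and 311 FPKM and MAP2 at 1.11, 1.39 and 1.38 FPKM, while SNAP25 was at 0.06, 0.02 and 0.02 FPKM and SOX10 was listed at 0. In the placenta list 5 of 9 were expressed (55.6%, close to the 57.7% of all genes). CGB8 was at 16.2, 17.5 and 15.9 FPKM, CGB5 at 8.04, 8.81 and 11.9 FPKM and CGB3 at 3.44, 2.91 and 2.30 FPKM, and these beta chain genes of chorionic gonadotropin are near-identical copies whose values are uncertain one by one. The alpha chain CGA, without which no dimeric hormone forms, was at 0.04, 0.26 and 0.12 FPKM. PSG1 (3.91 ± 0.686 FPKM) and PSG5 (3.73 ± 0.435 FPKM) encode pregnancy-specific glycoproteins.

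Lung, pancreas, germ line and pluripotency genes completed the survey. SFTPC, a surfactant protein of lung alveoli, was at 5.97, 9.85 and 10.5 FPKM and SFTPB at 2.37, 3.77 and 3.79 FPKM, with replicate 1 the lowest in both, while the lung factor NKX2-1 was at 0.05, 0.12 and 0.09 FPKM. PRSS1, trypsinogen, was the 1 expressed of 8 pancreatic genes, at 1.08, 1.69 and 1.31 FPKM, and CPA1 and PTF1A were listed at 0. None of 14 germ line genes was expressed, with DDX4, DAZL, SYCP1 and PRM1 listed at 0. None of 10 MAGE-A genes and none of 5 SSX genes, both cancer-testis families, was expressed, and PAGE4 (5.51, 7.31 and 7.12 FPKM) was the 1 expressed of 14 GAGE, PAGE and XAGE genes. POU5F1 was at 5.09, 5.01 and 4.49 FPKM among 9 pluripotency genes, with NANOG at 0.16, 0.17 and 0.20 FPKM. POU5F1 has expressed pseudogenes of near-identical sequence, so its value is uncertain.

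HOX genes, the homeobox factors that record position along the body axis, were used from 2 of their 4 clusters. None of 11 HOXA genes and none of 8 HOXD genes was expressed, with 5 and 3 of them listed at 0, while 6 of 10 HOXB and 5 of 9 HOXC genes were. HOXB9 was at 35.1, 33.4 and 34.7 FPKM, HOXB6 at 25.4, 25.2 and 24.6 FPKM and HOXB5 at 13.7, 11.8 and 13.2 FPKM. HOXB8 (3.70 ± 0.336 FPKM), HOXB7 and HOXB3 were lower, while HOXB4, which lies among them in the cluster, was at 0.23, 0.26 and 0.20 FPKM. HOXC4 was at 13.5, 12.9 and 10.4 FPKM and HOXC5 at 8.24, 8.11 and 8.02 FPKM. The annotated spans of HOXC4, HOXC5 and HOXC6 overlap, as do those of HOXB3 and HOXB4, so their values are uncertain one by one. HOXC13, at the far end of its cluster, was at 3.05, 3.14 and 3.56 FPKM, while HOXC10, HOXC11 and HOXC12 between it and HOXC9 were not expressed.

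**Figure D3:**
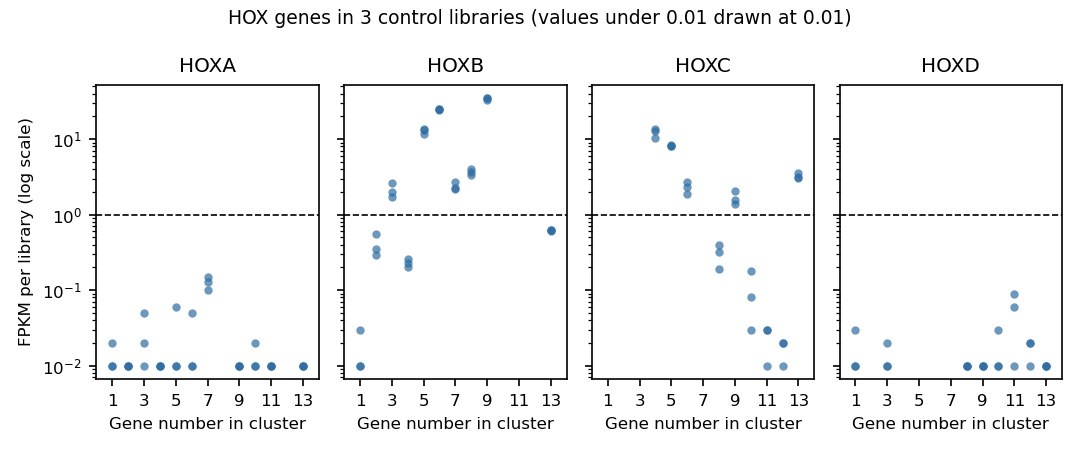
FPKM per library (y axis, log scale, values under 0.01 drawn at 0.01) of the HOX genes in the files by their number in each of the 4 clusters, with the dashed line at 1 FPKM and 3 points per gene for the 3 control libraries. HOXA and HOXD genes lie below the line throughout, and HOXB9 and HOXB6 are the highest in every library.

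Of 56 receptor tyrosine kinase genes, the receptors that carry most growth factor signals, 27 were expressed (48.2%, against 57.7% of all genes). The list median was 0.885 FPKM. The ephrin receptor EPHA2 led at 139, 128 and 128 FPKM, followed by the collagen receptor DDR1 (72.1 ± 3.13 FPKM), EPHB4 (61.7 ± 3.11 FPKM), PTK7 (45.7 ± 3.93 FPKM), ERBB2 (36.1 ± 1.88 FPKM) and FGFR4 (32.9 ± 0.227 FPKM). MET, the receptor for hepatocyte growth factor, was at 18.7, 15.9 and 17.9 FPKM and EGFR at 11.2, 9.95 and 9.71 FPKM. Partner ligands were found for some of these receptors. EFNA1, a ligand of EPHA2, was at 24.2, 25.5 and 23.02 FPKM, and EFNB2, a ligand of EPHB4, at 29.3, 26.0 and 27.6 FPKM. HGF, the ligand of MET, was at 0.04, 0 and 0 FPKM. The cytokine LIF was expressed with both chains of its receptor: LIF at 20.6 ± 0.745, LIFR at 9.33 ± 0.857 and IL6ST at 6.34 ± 0.459 FPKM. IL18, an inflammasome-released cytokine, was at 158, 172 and 175 FPKM, with its receptor chain IL18R1 at 0.02, 0.06 and 0.05 FPKM.

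Of 48 nuclear receptor genes 24 were expressed (50%, against 57.7% of all genes), with a list median of 1.05 FPKM. The orphan receptor NR2F6 led at 75.8, 75.5 and 72.4 FPKM, followed by the oxysterol receptor NR1H2 (45.8 ± 3.09 FPKM), ESRRA (22.3 ± 1.85 FPKM), a regulator of mitochondrial genes, the retinoic acid receptor RARG (16.9 ± 1.08 FPKM), NR4A1 and HNF4A (16.6 ± 1.89 FPKM). PPARG, the lipid-sensing receptor of fat and gut epithelium, was at 16.6, 16.0 and 14.9 FPKM. Steroid hormone receptors were mostly low: PGR was at 0, 0.01 and 0 FPKM, and ESR1 at 0.40, 0.25 and 0.34 FPKM, whereas the glucocorticoid receptor NR3C1 passed the rule at 3.14, 2.76 and 2.88 FPKM.

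AGS cells are widely used as host cells for Helicobacter pylori, the bacterium that colonises the stomach, so the host factors it engages were examined. Of 12 adhesion receptors and glycan enzymes 9 were expressed. ITGB1, part of the integrin bound by the type IV secretion system, was at 191, 173 and 195 FPKM, and its partner ITGA5 at 48.0, 49.8 and 44.5 FPKM. CEACAM6 (62.2 ± 2.59 FPKM), CEACAM1 (43.5 ± 1.71 FPKM) and CEACAM5, adhesion molecules bound by the outer membrane protein HopQ, were all expressed. FUT2, which makes the H antigen of secretions, was at 11.09, 10.03 and 10.02 FPKM, while FUT3, which makes the Lewis b antigen bound by the adhesin BabA, was at 0.81, 0.89 and 1.17 FPKM and failed the rule in replicates 1 and 2. All 8 listed partners of the injected protein CagA were expressed, led by GRB2 (37.0 ± 1.33 FPKM) and SRC (35.8 ± 1.65 FPKM), and the phosphatase gene PTPN11 was at 19.8, 18.8 and 20.6 FPKM.

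Innate sensing genes were expressed in part, 12 of 25 (48.0%, against 57.7% of all genes). The adaptors MYD88 (69.7 ± 0.709 FPKM), TICAM1 (23.1 ± 1.90 FPKM) and MAVS (13.1 ± 1.19 FPKM) led, with the kinase RIPK2 (12.4 ± 0.541 FPKM) and the DNA sensor CGAS (10.2 ± 0.756 FPKM). Sensors of bacterial products were low beside their adaptors. TLR4 was at 2.41, 2.31 and 2.55 FPKM and NOD1 at 2.79, 2.22 and 2.39 FPKM, while TLR5, the flagellin receptor, was at 0.07, 0.12 and 0.09 FPKM, TLR2 at 0.06, 0.04 and 0.07 FPKM, and ALPK1, the sensor of ADP-heptose, at 0.28, 0.24 and 0.25 FPKM. STING1, which acts downstream of CGAS, was at 0.60, 0.85 and 1.02 FPKM, under the threshold in replicates 1 and 2. The neutrophil attractant CXCL8 was at 6.11, 7.54 and 6.13 FPKM.

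Of 20 genes that are often silenced by promoter methylation in gastric cancer, 7 were expressed (35.0%, against 57.7% of all genes). This list was drawn up after levels of other lists had been seen, so its share is a description only. SFRP1 and SFRP2, secreted inhibitors of Wnt signalling, were listed at 0. RUNX3, a tumour suppressor of the stomach, was at 0.03, 0.01 and 0.05 FPKM, DAPK1 at 0.08, 0.02 and 0.08 FPKM, TIMP3 at 0.02, 0.04 and 0.03 FPKM, CHFR at 0.04, 0.05 and 0.03 FPKM and HLTF at 0, 0.04 and 0.05 FPKM. The DNA repair gene MGMT (48.1, 49.6 and 52.3 FPKM) and the cell cycle inhibitor CDKN2B (24.7, 22.5 and 24.1 FPKM) were expressed. Methylation was not measured in these libraries. Among the DNA methyltransferases, DNMT3B was at 29.7, 28.5 and 30.1 FPKM and the maintenance enzyme DNMT1 at 28.9, 24.4 and 26.3 FPKM, ranges that overlap.

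Paralogue use was examined in the 79 families that had at least 2 members in the files and at least 1 expressed. A family was counted as led by a gene when that gene held at least 80% of the family's summed FPKM in each library, and 40 of the 79 were led in this sense. All 9 translation families were led, as were 13 of 19 metabolic families, 4 of 7 mitochondrial subunit families and 4 of 6 families of lineage factors. Adhesion had 3 of 5. They include the cadherin family, led by CDH17 (81.5% to 83.0%). CDH17 is not a classical cadherin, so that entry rests on listing it with them. Leading genes were rarer in the cytoskeleton (3 of 11), chaperones (1 of 4), chromatin (1 of 4) and signalling (2 of 14). These class counts depend on which families and members were listed, and the classes were not tested against each other. In 22 families 1 member was expressed and in 57 at least 2 were. The gene with the highest level was the same in all 3 libraries in 78 of the 79. The exception was creatine kinase, with the cytosolic CKB at 14.5, 16.7 and 14.3 FPKM and the mitochondrial CKMT1A at 15.3, 13.1 and 14.5 FPKM. CKMT1B, a near-identical copy of CKMT1A, was at 10.07, 11.54 and 10.19 FPKM, so each value of the copies is uncertain. The sum of CKMT1A and CKMT1B was 25.33, 24.67 and 24.64 FPKM, above CKB in every library.

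**Figure D4:**
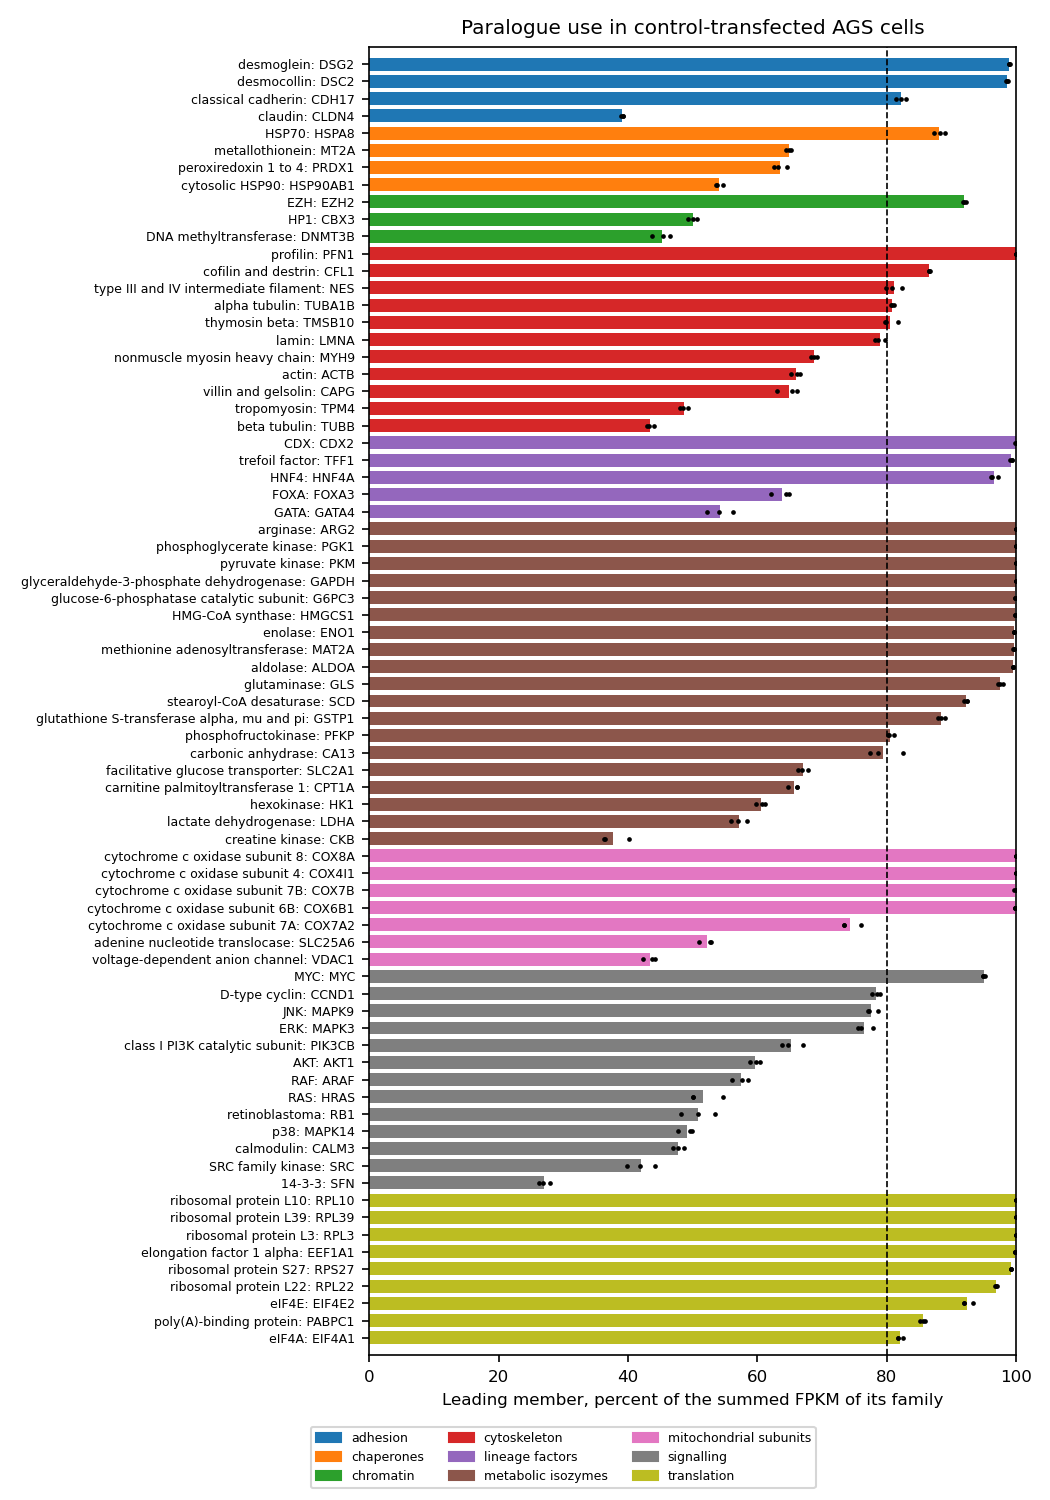
Share of the family's summed FPKM held by the leading member (x axis, percent) for 75 of the 79 families examined, with bars for the mean and points for the 3 control libraries, coloured by class, and the dashed line at 80%. All 9 translation families reach the line in each library, while most signalling families stay below it. The family labelled classical cadherin is led by CDH17, which is not a classical cadherin.

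Glycolytic messages came from a narrow set of isozymes at several steps. ENO1 (1200, 1250 and 1233 FPKM) held over 99.7% of the enolase messages, with the neuronal ENO2 at 0.07, 0.16 and 0.09 FPKM. PKM (1342 ± 44.3 FPKM), the pyruvate kinase of most tissues, stood beside the liver and red cell gene PKLR at 0.03, 0 and 0.02 FPKM. ALDOA (1177 ± 27.7 FPKM) led the aldolases, above ALDOC (5.16 ± 0.355 FPKM). The phosphofructokinase of platelets PFKP was at 244, 252 and 234 FPKM, above the liver type PFKL (45.1 ± 1.48 FPKM) and the muscle type PFKM (13.7 ± 0.0872 FPKM). Other steps were shared. LDHA was at 614, 628 and 632 FPKM and LDHB at 436, 473 and 497 FPKM, so LDHA held 55.9% to 58.5% of the lactate dehydrogenase messages. HK1 (14.4 ± 0.801 FPKM) and HK2 (6.38 ± 0.265 FPKM) both carried hexokinase. The glucose transporter SLC2A1 was at 339, 326 and 320 FPKM and the neuronal type SLC2A3 at 167, 154 and 162 FPKM.

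In phosphoglycerate kinase and arginase the leading gene was expressed and its paralogue was listed at 0 in all 3 libraries, as RPL10L was beside RPL10 (828 ± 52.8 FPKM) and COX8C beside COX8A (368 ± 31.7 FPKM). PGK1, the enzyme of glycolysis in somatic cells, was at 97.3, 96.6 and 100.3 FPKM, and PGK2, known from sperm, was listed at 0. ARG2, the mitochondrial arginase, was at 20.9 ± 2.44 FPKM (lowest in replicate 1, at 18.1 FPKM), and ARG1, the arginase of the liver urea cycle, was listed at 0. A link of CG content to expression was not tested. The pairs are examples, and windows of other families with a member listed at 0 are not shown. Their RefSeq windows (build GRCh38.p14, 250 bases before to 50 after the annotated start) are shown to set the expressed and the listed-at-0 members of these pairs side by side, with each CG dinucleotide in capitals.
PGK1: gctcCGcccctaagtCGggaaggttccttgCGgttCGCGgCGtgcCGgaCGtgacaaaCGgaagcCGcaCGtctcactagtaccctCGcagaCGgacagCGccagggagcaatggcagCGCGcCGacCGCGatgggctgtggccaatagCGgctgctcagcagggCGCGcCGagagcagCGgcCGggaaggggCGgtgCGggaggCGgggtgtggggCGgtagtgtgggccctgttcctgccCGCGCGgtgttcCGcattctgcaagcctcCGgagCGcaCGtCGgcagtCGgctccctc
PGK2: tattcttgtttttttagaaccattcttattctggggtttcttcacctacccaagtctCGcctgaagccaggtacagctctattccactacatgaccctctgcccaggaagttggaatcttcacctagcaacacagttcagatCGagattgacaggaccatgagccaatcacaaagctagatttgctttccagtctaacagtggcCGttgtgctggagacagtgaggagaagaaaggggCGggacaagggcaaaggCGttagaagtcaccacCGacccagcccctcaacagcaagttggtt
ARG2: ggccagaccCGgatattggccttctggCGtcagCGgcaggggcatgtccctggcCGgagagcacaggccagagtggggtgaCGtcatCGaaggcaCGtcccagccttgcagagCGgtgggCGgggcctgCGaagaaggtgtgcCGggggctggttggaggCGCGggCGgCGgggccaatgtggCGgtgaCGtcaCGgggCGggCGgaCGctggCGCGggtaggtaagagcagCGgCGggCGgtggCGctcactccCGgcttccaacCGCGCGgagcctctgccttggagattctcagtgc
ARG1: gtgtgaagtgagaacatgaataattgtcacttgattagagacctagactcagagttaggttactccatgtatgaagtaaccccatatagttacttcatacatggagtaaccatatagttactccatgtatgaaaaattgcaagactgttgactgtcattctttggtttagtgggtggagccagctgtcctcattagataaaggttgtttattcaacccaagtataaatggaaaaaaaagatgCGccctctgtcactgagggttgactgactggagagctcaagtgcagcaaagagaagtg
The windows lie at chrX:78103998-78104297 (plus strand) for PGK1, chr6:49787236-49787535 (minus strand) for PGK2, chr14:67619670-67619969 (plus strand) for ARG2 and chr6:131572976-131573275 (plus strand) for ARG1. They held 38 CG dinucleotides in PGK1, 6 in PGK2, 31 in ARG2 and 1 in ARG1. The ratio of observed CG to that expected from the C and G content was 1.03, 0.334, 0.862 and 0.0857 in the same order. The median ratio over the 8857 expressed genes with a window was 0.852, and 85.2% of them were at 0.6 or above, while the median over all 27305 windows in the table was 0.580. TATAAA was found in the window of ARG1 and in none of the other 3. No comparison with the genes listed at 0 as a group was made, because 72.5% of them had a window, under the 80% required. All genes in the files were not used as a background for the same reason, with windows for 78.6%. The 27305 windows include genes not in the files and are an unlike background.

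Oxidative and translational paralogues of restricted tissues were mostly unused. The oxidase subunit COX4I1 was at 416, 490.0 and 455 FPKM, with its lung-type paralogue COX4I2 at 0.09, 0.19 and 0 FPKM. COX6B1 was at 924, 1105 and 1059 FPKM, and the testis-type COX6B2 passed the rule at 1.41, 2.26 and 1.18 FPKM. The nucleotide carriers SLC25A6 (434 ± 13.2 FPKM) and SLC25A5 (397 ± 9.27 FPKM) shared the family, while SLC25A4, the heart and muscle form, was at 0.06, 0.05 and 0.11 FPKM. EEF1A1 (1918 ± 44.4 FPKM) led EEF1A2 (2.53 ± 0.712 FPKM), the neuronal and muscle elongation factor. In the cap-binding family the leader was EIF4E2 at 111, 121 and 111 FPKM, a protein that represses translation, with the initiation factor EIF4E at 8.24, 7.50 and 8.59 FPKM. RPL22 (214 ± 20.6 FPKM) and RPS27 led their paralogues RPL22L1 (6.84 ± 0.432 FPKM) and RPS27L (32.1 ± 3.13 FPKM), both of which were expressed.

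Several cytoskeletal families were shared, although PFN1 held nearly all profilin messages and CFL1 and TUBA1B led the cofilins and the alpha tubulins. TUBB (1095 ± 5.71 FPKM), TUBB4B (901 ± 29.0 FPKM), TUBB3 (312 ± 3.84 FPKM) and TUBB2A (199 ± 4.84 FPKM) all contributed beta tubulin, and TUBB held under 45% of the family in each library. TMSB10 at 4066, 5001 and 4627 FPKM stood above TMSB4X at 1020.4, 1111 and 1170.1 FPKM, and no library of the lower gene reached one of the higher. MYH9 (120.2 ± 6.19 FPKM) and MYH14 (56.1, 55.7 and 51.6 FPKM) carried nonmuscle myosin, with MYH10 at 0.07, 0.11 and 0.07 FPKM. Among filaments of types III and IV the leader was NES, nestin of progenitor cells, at 43.2, 43.0 and 39.9 FPKM, above VIM in every library.

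Signalling families were also shared by several members. CCND1 (311, 279 and 295 FPKM) and CCND3 (81.2 ± 1.64 FPKM) were the D-type cyclins in use, and CCND2 was listed at 0. AKT1 (97.0 ± 1.46 FPKM) and AKT2 (65.4 ± 3.19 FPKM) were both expressed. HRAS was at 34.0, 35.0 and 33.7 FPKM and NRAS at 21.95, 18.7 and 21.7 FPKM, with no overlap between the genes. MAPK3, a kinase of the growth factor cascade, was at 78.0 ± 3.66 FPKM. MYC (57.5 ± 1.38 FPKM), a growth-promoting transcription factor, led its family, with MYCL at 2.75, 2.36 and 2.39 FPKM and MYCN at 0.43, 0.48 and 0.69 FPKM. Among 14-3-3 genes SFN, the epithelial form, was highest at 492, 515 and 487 FPKM, above YWHAE (419 ± 5.48 FPKM).

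The lineage factor families were picked for their use in gut and related tissues, so a leading gene of gut epithelium was largely set by that choice. CDX2 stood with CDX1 at 0, 0.06 and 0 FPKM, TFF1 with TFF2 and TFF3 near 0, and HNF4A with HNF4G at 0.55, 0.63 and 0.58 FPKM. Claudins were shared by CLDN4, CLDN6 (224 ± 4.59 FPKM), a claudin of the embryo and of some tumours, and CLDN7 (209 ± 7.45 FPKM). DSG2 (30.0 ± 2.43 FPKM) and DSC2 (10.4 ± 0.228 FPKM), the desmosomal cadherins of simple epithelia, each led their families. The replication-dependent linker histones, whose messages lack poly(A), were low, with H1-2 at 6.86, 7.62 and 6.72 FPKM and H1-4 at 0.14, 0.27 and 0.20 FPKM. The sources used here do not say how RNA was selected for the libraries.

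Several genes whose products work with a partner were expressed while a partner examined here was not. ASL, which splits argininosuccinate, was at 20.9, 23.5 and 21.3 FPKM, while ASS1, which makes it, was at 0.85, 0.91 and 0.97 FPKM, just under the threshold in every library. GRIN2D, a regulatory subunit of the NMDA glutamate receptor, was at 57.8, 54.0 and 51.0 FPKM, and GRIN1, the subunit that all such receptors need, at 0.37, 0.24 and 0.22 FPKM. CHRNA5, an accessory nicotinic receptor subunit, was at 6.56, 6.78 and 6.99 FPKM, with its cluster neighbours CHRNA3 at 0.09, 0.10 and 0.20 FPKM and CHRNB4 at 0.06, 0.03 and 0.06 FPKM. Of 15 nicotinic receptor genes 2 were expressed, so another subunit passed the rule and was not examined as a partner. HLA-DMA was at 7.23, 6.27 and 7.25 FPKM and its partner chain HLA-DMB at 0.31, 0.38 and 0.46 FPKM. Neither chain of calprotectin was expressed: S100A8 was listed at 0 and S100A9 was at 0.48, 0.67 and 0.67 FPKM, in a family with 10 of 18 genes expressed. Other pairs were complete: ANXA2 (2135 ± 85.3 FPKM) stood with its tetramer partner S100A10 (3052 ± 157 FPKM), and KCNQ1 with its accessory subunit KCNE3 (6.69 ± 0.236 FPKM).

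Several gene families of excitable, sensory and specialised cells had few or no expressed members. None of 10 voltage-gated sodium channel alpha genes, 10 calcium channel alpha 1 genes, 16 GABA-A receptor genes and 15 bitter taste receptor genes was expressed. Of 90 potassium channel genes 8 were, led by the leak channel KCNK1 (20.5 ± 0.575 FPKM) and the calcium-gated KCNN4 (8.40 ± 0.246 FPKM). Of 87 olfactory receptor genes, 46 were listed at 0 (52.9%, against 6.57% of all genes) and OR7E24 was expressed, at 3.37, 4.94 and 3.26 FPKM. None of 8 beta defensins was expressed, with 5 at 0. Of 53 clustered protocadherins 3 were expressed, all of the beta cluster, led by PCDHB2 (5.17 ± 0.278 FPKM). Drug-metabolising genes were few: 7 of 54 cytochrome P450 genes, led by CYP2S1 (88.4, 84.7 and 84.1 FPKM), and 2 of 16 UDP-glucuronosyltransferases, UGT1A6 at 73.5, 72.6 and 76.8 FPKM and UGT1A1 at 1.09, 1.08 and 1.37 FPKM. UGT1A genes share their last exons, so these values are uncertain one by one.

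Few genes of secreted signals were expressed. Of 32 interleukin genes 6 were expressed, led by IL32 (390.3, 442 and 407 FPKM), a cytokine with intracellular forms, and IL18. Of 18 WNT ligands 4 were expressed, led by WNT6 (10.67, 10.98 and 8.89 FPKM) and WNT5B (5.31 ± 0.541 FPKM), beside 6 of 10 frizzled receptors, led by FZD6 (14.7 ± 1.36 FPKM). Of 20 FGF ligands 3 were expressed, none above 2 FPKM. CXCL16, a chemokine with a membrane form, was at 112, 104 and 106 FPKM among 5 of 14 expressed C-X-C chemokines. Of 21 matrix metalloproteinases 7 were expressed, led by the membrane type MMP14 (177, 156 and 166 FPKM), with MMP1 at 26.5, 27.8 and 29.4 FPKM. Broader classes came close to the background of 57.7%, with 321 of 506 ZNF zinc finger genes (63.4%) and 42 of 73 ubiquitin-specific proteases (57.5%) expressed, while 182 of 380 solute carriers (47.9%) were.

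By chromosome, the expressed share ran from 42.4% of 753 genes on the X and 49.4% of 714 on chromosome 4 to 65.7% of 563 on chromosome 14 and 66.2% of 825 on chromosome 16. The share listed at 0 was 15.7% on the X and 3.59% on chromosome 19.

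The spread between libraries was small for most expressed genes. The median coefficient of variation (CV, SD over mean) was 5.51%, and it was 7.30% for means of 1 to 10 FPKM, 4.57% for 10 to 100, 4.31% for 100 to 1000 and 5.77% for at least 1000 FPKM. Of the 6041 genes with a mean of at least 10 FPKM, 24 had a CV over 15%. The 4 most variable of them each had a near-identical copy among the genes in the files. U2AF1, a splicing factor that reads the end of introns, was at 61.1, 66.5 and 104.7 FPKM, and LOC102724594, which RefSeq lists under the synonym U2AF1L5, at 69.4, 74.4 and 27.5 FPKM. They lie at chr21:43092956-43107578 and chr21:6484623-6499248. Their CVs were 30.7% and 45.1%, while their sums of 131, 141 and 132 FPKM had a CV of 4.13%. SULT1A3 (17.96, 16.1 and 9.20 FPKM) and SULT1A4 (13.02, 19.7 and 22.3 FPKM), sulfotransferase copies on chromosome 16, had CVs of 32.0% and 26.0%, and their sum one of 8.11%. SMN1 (34.3, 45.2 and 44.4 FPKM) and SMN2 (36.4, 23.2 and 20.4 FPKM), the copies that encode the survival motor neuron protein, had a sum with a CV of 4.31%. Reads of such copies can be split between them by the authors' counting, and each single value is uncertain. LDLRAD2 (17.8, 31.5 and 26.6 FPKM) overlaps HSPG2 (73.3, 58.8 and 61.5 FPKM) on chromosome 1, and their sum had a CV of 1.74%. The sources used here do not say whether the counting used strand.

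**Figure D5:**
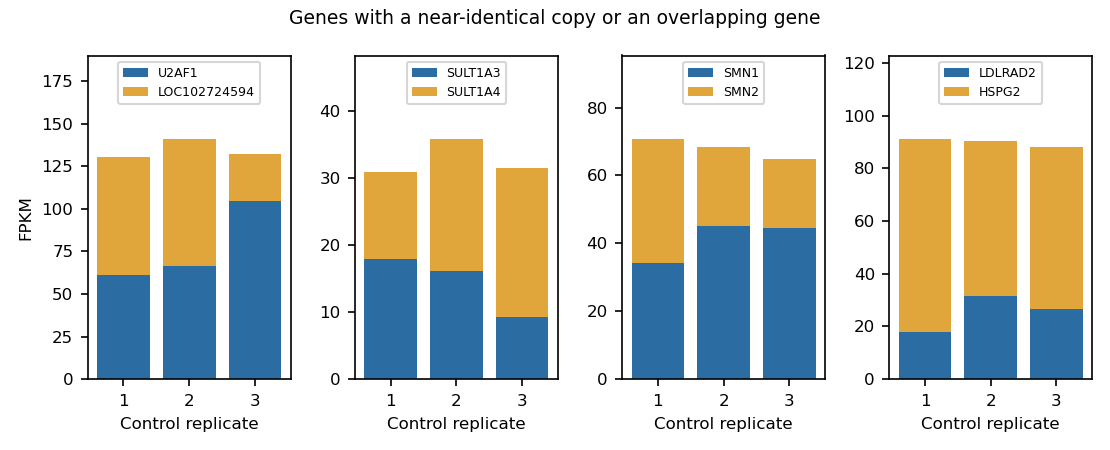
FPKM (y axis) in control replicates 1 to 3 (x axis) of 3 pairs of near-identical copies and of the overlapping pair LDLRAD2 and HSPG2, with the members of each pair stacked. In the copy pairs the higher member differs between libraries. For example, LOC102724594 is above U2AF1 in replicates 1 and 2 and below it in replicate 3. HSPG2 is above LDLRAD2 in all 3, while the stacked heights have CVs of 1.74% to 8.11%.

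Other copies were uneven in every library. BOLA2B was at 291, 353 and 332.4 FPKM while BOLA2 was listed at 0, and SLX1A was at 88.8, 93.1 and 87.9 FPKM while SLX1B was at 0.12, 0.17 and 0.48 FPKM. For such pairs a member listed at 0 is not shown to be silent. Among the 10 most variable genes, those with no overlapping row and no copy in the pairs examined were HNMT, a histamine methyltransferase, at 7.75, 11.5 and 11.9 FPKM, the cystatin CST4 at 12.9, 14.8 and 9.53 FPKM, MORN2 at 10.4, 15.2 and 15.4 FPKM and EPPK1, epiplakin, at 21.6, 15.4 and 17.3 FPKM. In HNMT and MORN2 replicate 1 was low, in CST4 replicate 3 was low and in EPPK1 replicate 1 was high.

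The series concerns DUB1 and the Hippo pathway, whose effectors were expressed in resting cells. YAP1 was at 14.5, 12.5 and 14.1 FPKM, rank 5035 of 18597 by mean level, and WWTR1, which encodes its paralogue TAZ, at 4.54, 4.25 and 4.49 FPKM, rank 8469. The deubiquitinase gene USP36 was at 9.16, 6.74 and 7.25 FPKM, rank 6838. These ranks are over all genes in the files, of which 10727 were expressed. By mean level YAP1 lay just above the median of the expressed genes (12.4 FPKM), and WWTR1 and USP36 lay below it.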

How the data were processed

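RNA of 3 siControl libraries of AGS cells was analysed; their group and replicate number come from the sample titles. The values are FPKM as the authors deposited them, per the file headers, with 2 decimals and 1 row for each NCBI Gene ID. Reads were placed on GRCh38, per the submitters' processing notes. The annotation, aligner, counter and strand setting are, like the read depth, not given in the sources used here. FPKM scales each gene to its model's length and to the library's total, so a change in a few abundant genes shifts all others. The depth of each library is unknown, so values carry no counting interval.

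Symbols were assigned to the NCBI Gene IDs from the RefSeq gene table (GRCh38.p14), which held 18437 of 18597. No pair of libraries held the same values: 582 to 641 genes above 0 were identical to 2 decimals. A gene was called expressed at 1 FPKM or more in all 3 libraries. Levels are means ± SD over the 3 libraries, the spread on a log scale used log2(FPKM + 1), and no test was made because 1 group was described. Shares are percentages of the summed FPKM. Promoter windows came from the RefSeq promoter table, and a set was used only where at least 80% of its genes had one. Analyses used Python 3.11.15 with pandas 2.3.3, numpy 2.4.6 and matplotlib 3.10.9, and the scripts were tested on simulated data.

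The genes named are the 20 most abundant, up to 6 expressed members of each list in order of level with members at 0 that define a cell type, the leading members of each family, the 10 most variable genes with a mean of at least 10 FPKM, the genes next to the threshold, and USP36, WWTR1 and YAP1. Members outside that rule that are named at low values were chosen after their values were seen. The members and lists were chosen with earlier results of these data known. The methylation list, the partner sets and the copy pairs were drawn up after levels of other lists had been seen. Alternatives tried were other thresholds, pseudocounts and scalings, and leaving out each library. Some genes of these families and lists are not reported here.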

Additional observations from a re-analysis of the deposited data

How the results depend on the processing

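With each library left out in turn, the number of expressed genes was 10768 to 10792, the number listed at 0 was 1617 to 1669, the share of the 20 most abundant genes was 14.7% to 14.9%, the median CV was 4.16% to 5.11%, the median SD of log2 FPKM was 0.0533 to 0.0658 and 40 to 41 families were led. The number of expressed genes was 11410 at 0.5 FPKM, 9848 at 2 FPKM, 7938 at 5 FPKM, 10892 by the mean of the libraries, 11288 after scaling to TPM and 10713 after scaling by size factors, within 1.5 times 10727 in each. The number listed at 0 rests on the definition: it was 4280 for under 0.1 FPKM in all 3 libraries and 2486 for 0 in at least 2 of the 3. The share of the 20 most abundant genes was 15.5% without cytosolic ribosomal protein genes. The median CV was 4.89% for genes over 5 FPKM and 8.62% with no filter. The median SD of log2 FPKM was 0.0710, and it was 0.0785 with a pseudocount of 0.1, 0.0793 with 0.01 and 0.0616 with no filter. Led families numbered 58 at a share of 60% and 32 at 90%. Of the 29 lists, 26 kept a count within 1.5 times at 0.5 FPKM, 18 at 5 FPKM and 29 with each library left out. A planned comparison of promoter CG content with the genes listed at 0 gave no value, since 72.5% of those genes had a window. No paired analysis was possible because 1 group was described and no test was made. The unknown depth limits what can be said of values near 0: a gene listed at 0 is not shown to be silent.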
